A study of Rattus norvegicus with 6 samples.

Results

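The miR-7 guide strands, their passenger strands, miR-375 and miR-671 were examined in small RNA libraries of rat brain, 3 from rats with 2VO and 3 from such rats given tilianin. The members were chosen by miRNA name, as far as the name had a row among the 775 in the deposited table, with results of these libraries already known. All 6 have a row, namely rno-miR-7a-5p, rno-miR-7b, rno-miR-7a-1-3p, rno-miR-7a-2-3p, rno-miR-375-3p and rno-miR-671. Because of that choice, the differences between the groups are given below as a description, with standard errors and no p-value for a member. Whether a member met the study's thresholds is part of that description and is not evidence of a change. Only the 4 miR-7 rows held any counts.

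Male Sprague-Dawley rats, 7 weeks old when obtained, underwent 2-vessel occlusion (2VO), in which both common carotid arteries are ligated so that less blood reaches the brain for a long time. The treated rats took 40 mg/kg of tilianin, a flavonoid glycoside, by gastric tube each day for 4 weeks in 0.5% CMC-Na. The 2VO rats took the vehicle alone, at 5 mL/kg. No unoperated or sham library was analysed here, so both groups share the operation, and nothing in the sources used here says whether a library is 1 rat. The tissue is labelled brain for all libraries, and the account of the sequencing also calls it cortical. In such bulk samples, fewer cells of a type and less RNA per cell cannot be told apart.

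MiR-7 is an old and highly conserved miRNA of neurons and of hormone-secreting cells, with particularly high levels in the hypothalamus, the pituitary and the pancreatic islets. In the brain it is part of a small network of noncoding RNAs. The circular RNA Cdr1as carries many binding sites for miR-7, the long noncoding RNA Cyrano directs the degradation of miR-7, and miR-671 directs the cutting of Cdr1as. MiR-375 is a miRNA of islets, pituitary and other endocrine or epithelial cells. A miRNA hairpin yields a guide strand, which is loaded into the silencing complex, and a passenger strand, most of which is discarded. The seed, bases 2 to 8 of the mature strand, largely decides which mRNAs are bound.

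The mature strands are given here from RefSeq (GRCr8), which matched all 6 names, with the seed in capitals. They show which members could act on shared targets and which rows a short read could hardly tell apart.
rno-miR-7a-5p: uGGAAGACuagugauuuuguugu
rno-miR-7b: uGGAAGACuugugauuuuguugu
rno-miR-7a-1-3p: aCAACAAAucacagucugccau
rno-miR-7a-2-3p: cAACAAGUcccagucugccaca
rno-miR-375-3p: uUUGUUCGuucggcucgcguga
rno-miR-671: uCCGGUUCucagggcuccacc

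The guides rno-miR-7a-5p and rno-miR-7b have the seed GGAAGAC in common, and no other row of the table with a RefSeq sequence has it. Over their 23 bases they differ by a single substitution, A10U, counted from 1 at the 5′ end of rno-miR-7a-5p. Reads with an error at that base could be counted on the wrong row. The passengers have different seeds. That of rno-miR-7a-1-3p, CAACAAA in the RefSeq form of the strand, also occurs in rno-miR-3065-5p. The seeds of rno-miR-7a-2-3p, rno-miR-375-3p and rno-miR-671 occur in no other row with a RefSeq sequence.

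The rno-miR-7a-5p guide has 2 source genes with different passengers, so its counts cannot be assigned to a locus, whereas those of the passengers can. The hairpins are printed to show this, in RefSeq's GRCr8 sequence and with the mature strands in capitals. The authors' genome build is not given in the sources used here, and these positions are those of RefSeq. The miR-7a-1 hairpin lies at chr17:6278692-6278788 on the plus strand, inside the span of Hnrnpk, the gene of an RNA-binding protein. The miR-7a-2 hairpin lies at chr1:142215800-142215894 on the plus strand, inside the span of the long noncoding RNA gene LOC120099863. The miR-7b hairpin lies at chr9:1167436-1167545 on the plus strand, inside the span of the pseudogene Rpl35l3. Whether the hairpins are in introns or exons was not examined here.
miR-7a-1 hairpin: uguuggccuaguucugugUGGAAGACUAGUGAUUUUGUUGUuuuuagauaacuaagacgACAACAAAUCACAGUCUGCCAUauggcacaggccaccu
miR-7a-2 hairpin: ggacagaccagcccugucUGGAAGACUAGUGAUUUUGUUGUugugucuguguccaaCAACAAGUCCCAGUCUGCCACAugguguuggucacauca
miR-7b hairpin: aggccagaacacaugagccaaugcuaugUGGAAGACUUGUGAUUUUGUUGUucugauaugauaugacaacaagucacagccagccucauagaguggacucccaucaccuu

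Total counts ranged from 7428890 to 13198776 in the 2VO group and from 7175872 to 9464216 in the treated group. Levels are given as CPM, counts per 1000000 counts after scaling with the TMM method of edgeR. How well a small RNA is captured depends on its sequence, which was not corrected for, so levels and ratios between different strands are those of the counts and may not be those of the RNAs. Tilianin-treated replicate 2 stood apart from the rest. Its Spearman correlations with the other libraries over the 454 miRNAs tested were 0.936 to 0.957, against 0.983 to 0.992 for the remaining pairs. Lists of marker miRNAs of several cell types were summed in each library. The summed CPM of 8 neuronal miRNAs, among them miR-124-3p, miR-9a-5p and miR-128-3p, was 131413 to 164465 in the 2VO group. In treated replicates 1, 2 and 3 it was 146228, 85849 and 162914. MiR-124-3p made up most of each sum, with 55804 CPM in treated replicate 2. Of the list, miR-129-5p alone was not lowest in treated replicate 2, with 827 CPM there and 789 CPM in treated replicate 1. Its log2 fold change was 0.075 (standard error 0.254). The 6 Hox-cluster miRNAs, led by miR-10a-5p and miR-10b-5p, summed to 89.8 to 149 CPM in the 2VO group and to 321, 21658 and 489 CPM in treated replicates 1, 2 and 3, and 2 of them were at 0 in all libraries. The 6 choroid plexus miRNAs, led by miR-204-5p and with 2 of them at 0 everywhere, summed to 120 to 152 CPM in the 2VO group. In treated replicates 1, 2 and 3 they summed to 349, 1078 and 123 CPM, the last within the 2VO range. Of the 4 tested, miR-449a-5p alone had a log2 fold change below 0 (-0.59, standard error 0.584). The 4 miRNAs of red blood cells summed to 155 to 199 CPM and 338 to 881 CPM. Nearly all of this was miR-486, at 152 to 198 CPM and 338 to 876 CPM. The others listed, miR-451-5p, miR-144-3p and miR-144-5p, were at most 3.54 CPM in any library. For the choroid plexus and red blood cell lists the top sum was again in treated replicate 2. By the thresholds given below, 0 of 8 neuronal and 2 of 3 Hox-cluster miRNAs tested were called upregulated with tilianin. So were 3 of 4 choroid plexus and 1 of 2 red blood cell miRNAs tested. None in these lists was called downregulated. Of all 454 miRNAs tested, 4.63% were called upregulated and 1.1% downregulated. The lists were written with earlier results of these data known, so nothing is read from these counts. The part of the shifts in the list sums in the values below was not tested.

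The guide rno-miR-7a-5p had many counts in these libraries, 25th of the 775 rows by mean CPM, with 17568 to 97703 counts per library. Its level in 2VO replicate 1 was 8532 CPM, followed by 7541 CPM in replicate 2 and 3508 CPM in replicate 3. Tilianin-treated replicates 1, 2 and 3 had 3966, 2706 and 3901 CPM. The first 2 2VO libraries were thus about at the same high level, while the third was close to the treated libraries and below 2 of them, so that the groups overlapped. The mean was 6527 ± 2661 CPM without and 3524 ± 710 CPM with tilianin (SD, n = 3 each). The log2 fold change, treated over 2VO, was -0.89 with a standard error of 0.353. With a library left out it ranged from -1.20 (standard error 0.246) without 2VO replicate 3 to -0.65 (standard error 0.389) without 2VO replicate 1. Without treated replicate 2 it was -0.73 (standard error 0.343), and the mean of the treated group was 3934 CPM. As a share of all counts, rno-miR-7a-5p took 0.896% in 2VO replicate 1 and 0.245% in treated replicate 2, its extremes.

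The second guide, rno-miR-7b, had far fewer counts. 2VO replicates 1, 2 and 3 had 29.8, 24.6 and 10.7 CPM of it, and treated replicates 1, 2 and 3 had 13.2, 9.09 and 8.06 CPM. The order was nearly that of rno-miR-7a-5p, with 2VO replicates 1 and 2 high and 2VO replicate 3 below treated replicate 1. The group means were 21.7 ± 9.84 CPM and 10.1 ± 2.75 CPM (SD, n = 3 each). The log2 fold change was -1.10 with a standard error of 0.408, from 59 to 319 counts per library.

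**Figure D1:**
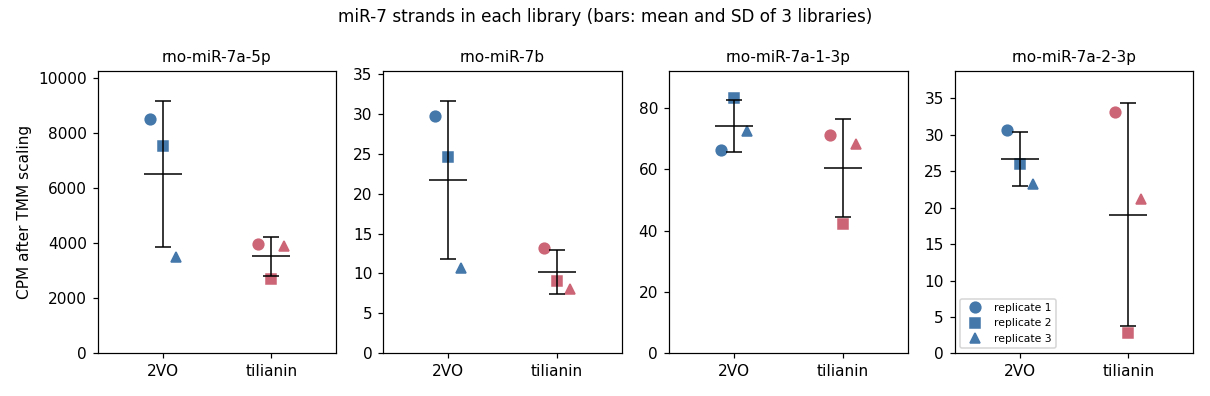
CPM after TMM scaling (linear axes from 0) of the 4 miR-7 strands with counts, by group, with a symbol for each replicate number and bars for the mean and SD of 3 libraries. For rno-miR-7a-5p and rno-miR-7b, 2VO replicates 1 and 2 lie above every treated library and 2VO replicate 3 does not, while rno-miR-7a-2-3p has a single low value, 2.77 CPM, in treated replicate 2.

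The share of rno-miR-7b in the guide counts needs no scaling between libraries. 2VO replicates 1, 2 and 3 gave 0.347%, 0.325% and 0.305%, and treated replicates 1, 2 and 3 gave 0.333%, 0.335% and 0.206%. Except for treated replicate 3, the libraries were close together, and their exact 95% binomial intervals overlapped. The interval of treated replicate 3, 0.159% to 0.262%, lay below that of treated replicate 1 in its own group (0.277% to 0.397%) and below those of 2VO replicates 1 and 2 (0.308% to 0.391% and 0.291% to 0.363%). These intervals cover counting error only. The means of 0.326 ± 0.0212% and 0.291 ± 0.0737% (SD, n = 3 each) differed by less than the SD of the treated group. The guide rows thus moved nearly in proportion, with 287 to 327 counts of rno-miR-7a-5p for each count of rno-miR-7b in 5 libraries and 484 in treated replicate 3. The guides differ at a single base, and how many rno-miR-7b counts are miscounted reads of rno-miR-7a-5p was not tested. The proportion is therefore that of the rows and may not be that of the guides.

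The passenger rno-miR-7a-1-3p, which comes from the locus inside Hnrnpk, varied less than the guides in the 2VO group. 2VO replicates 1, 2 and 3 had 66.4, 83.2 and 72.5 CPM of this strand, and treated replicates 1, 2 and 3 had 71.1, 42.2 and 68.1 CPM. Apart from the low value in treated replicate 2, all libraries were close together. In the 2VO group its highest library was 1.25 times its lowest, against 2.43 times for rno-miR-7a-5p in these libraries, while in the treated group the ratios were 1.69 and 1.47 times. The group means were 74.0 ± 8.52 CPM and 60.5 ± 15.9 CPM (SD, n = 3 each). On the log2 scale the fold change was -0.29, with a standard error of 0.245.

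The passenger rno-miR-7a-2-3p marks the other miR-7a locus. 2VO replicates 1, 2 and 3 had 30.6, 26.0 and 23.3 CPM of it. Treated replicates 1, 2 and 3 had 33.1, 2.77 and 21.2 CPM. Treated replicate 2, with 18 counts, was far below the others, and treated replicates 1 and 3 lay just above and just below the 2VO range. The lowest 2VO library was 8.40 times treated replicate 2 for this passenger, 1.57 times for rno-miR-7a-1-3p and 1.30 times for rno-miR-7a-5p. The log2 fold change between the groups was -0.48 with a standard error of 0.703, and 0.044 (standard error 0.257) without treated replicate 2, so it was below 0 with that library and not without it.

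The counts of the 2 passengers can be compared within a library, each being specific to its locus. The share of rno-miR-7a-2-3p in the summed passenger counts was 31.6% in 2VO replicate 1, 23.8% in replicate 2 and 24.3% in replicate 3. Treated replicates 1, 2 and 3 gave 31.8%, 6.16% and 23.8%. The exact 95% interval in treated replicate 2 ran from 3.69% to 9.57%, and the lowest bound of any other library was 20.7%. Without that library the mean of the treated group was 27.8%, against 26.6 ± 4.34% (SD, n = 3) in the 2VO group. Treated replicate 2 is also the library in which the neuronal sum was lowest and the Hox-cluster sum highest. The part of this in the low share was not tested.

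The strand balance varied from library to library as well. For each passenger count there were 88.0 counts of rno-miR-7a-5p in 2VO replicate 1, 69.0 in replicate 2 and 36.6 in replicate 3. The same ratio was 38.0, 60.2 and 43.7 in treated replicates 1, 2 and 3. The guide is the numerator of this ratio, which was highest in 2VO replicates 1 and 2, where the guide was highest too. Treated replicate 2, with the lowest guide level, came next, and 2VO replicate 3 was below all treated libraries. The means were 64.6 ± 26.0 and 47.3 ± 11.5 (SD, n = 3 each), so the groups differed by less than the SD of the 2VO group. The passengers took 1.12% to 2.66% of the miR-7a counts in the 2VO group and 1.63% to 2.56% in the treated group.

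**Figure D2:**
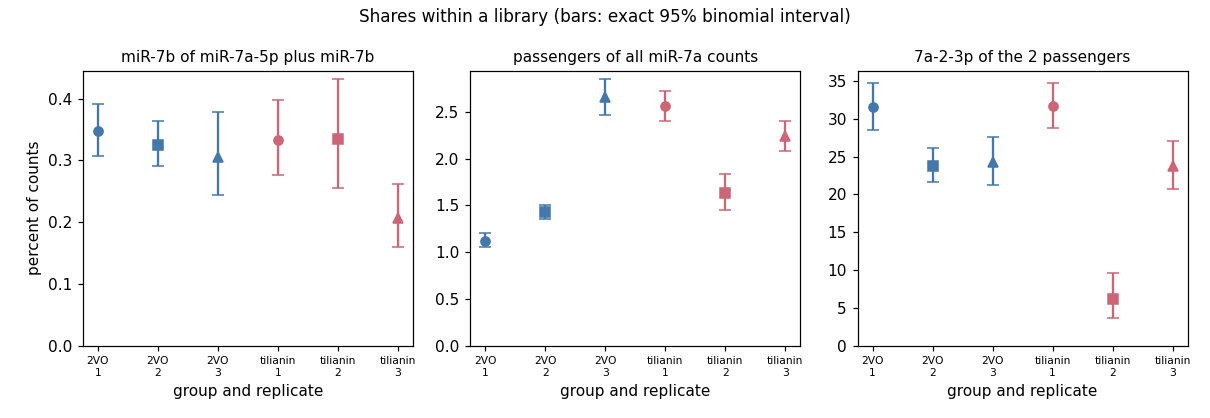
Percent of counts within each of the 6 libraries (axes from 0, bars are exact 95% binomial intervals, colours are the groups) for rno-miR-7b among the guides, the passengers among all miR-7a counts, and rno-miR-7a-2-3p among the passengers. The third panel shows treated replicate 2 at 6.16% and all other libraries at 23.8% or more.

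In the comparison of tilianin-treated with 2VO libraries across all 454 miRNAs tested (edgeR's quasi-likelihood test, with the study's thresholds of p below 0.05 before adjustment together with a log2 fold change beyond 1 in either direction), 1 of the 4 miR-7 strands in the fit, rno-miR-7b, met the thresholds for downregulation and none those for upregulation. Of all tested miRNAs, 1.1% were called downregulated and 4.63% upregulated. Since the members were picked with this comparison known, nothing is read from that count. All 4 log2 fold changes were below 0, beside a median of -0.034 over all tested miRNAs. For none of the 4 were the treated libraries all below the 2VO libraries, which held for 4.19% of the tested miRNAs. The values of rno-miR-7b no longer met the thresholds without 2VO replicate 1, 2VO replicate 2 or treated replicate 3, with log2 fold changes of -0.81, -0.98 and -0.96. Over all tested miRNAs, 0 had a Benjamini-Hochberg adjusted p-value below 0.05 with this test, 33 had an unadjusted p-value below 0.05, and edgeR's exact test and DESeq2's Wald test each gave 3 at the adjusted threshold.

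**Figure D3:**
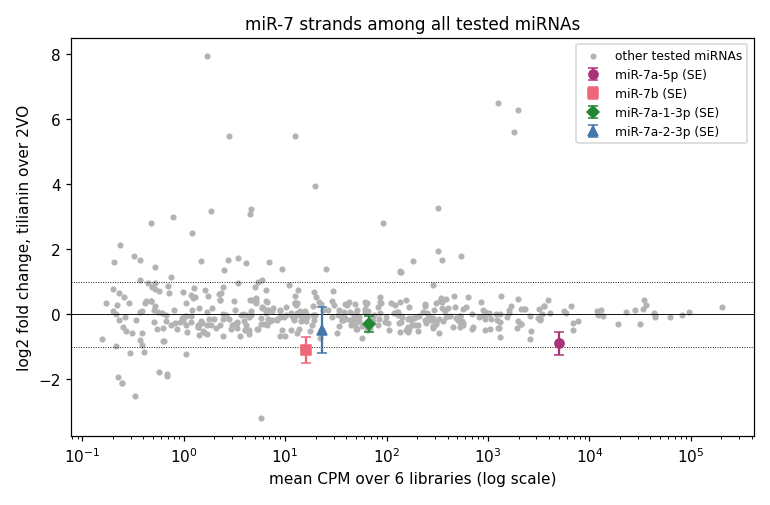
Log2 fold change of treated over 2VO libraries against mean CPM (log axis) for the 454 tested miRNAs, with the 4 miR-7 strands in colour and their standard errors as bars; dotted lines mark log2 fold changes of -1 and 1. rno-miR-7b lies at -1.10 and rno-miR-7a-5p at -0.89, while the bar of rno-miR-7a-2-3p (-0.48, standard error 0.703) reaches across 0.

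**Figure D4:**
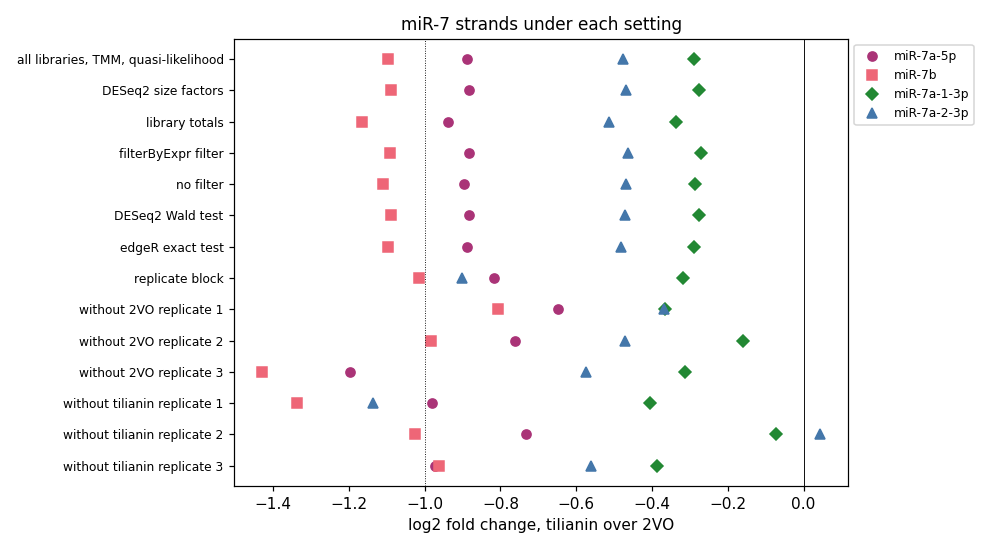
Log2 fold change of treated over 2VO libraries for the 4 miR-7 strands under each other normalization, filter, test and left-out library. The guides stay between -1.43 and -0.65 in every setting shown, and rno-miR-7a-2-3p moves from -1.14 to 0.044 when different libraries are left out.

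The miRNAs with the profile most like that of rno-miR-7a-5p were sought among 265 others with a mean of at least 10 CPM, by the root-mean-square difference of log2(CPM + 1) values centred on their mean over the 6 libraries. The nearest were miR-412-5p, miR-218b and miR-541-3p, with differences of 0.382, 0.392 and 0.394, beside a median of 0.645 over the 265. None of them had 2VO replicate 3 as far below the other 2VO libraries. As an example, miR-218b went from 1701 CPM in 2VO replicate 1 to 1410 in replicate 2 and 1302 in replicate 3, and was at 1015, 786 and 1457 CPM in treated replicates 1, 2 and 3, so that 2VO replicate 3 was not set apart from the other 2VO libraries. Rno-miR-3065-5p, which has the seed of rno-miR-7a-1-3p, had far higher CPM. 2VO replicates 1, 2 and 3 had 3158, 4689 and 2097 CPM of it, and treated replicates 1, 2 and 3 had 3569, 7266 and 2552 CPM, with its highest value where rno-miR-7a-1-3p had its lowest.

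The neuroendocrine member rno-miR-375-3p was listed at 0 in all 6 libraries, as was rno-miR-375-5p from the other arm of its hairpin. A count of 0 still allows up to 3 counts, which is 0.232 to 0.388 CPM in the 2VO libraries and 0.326 to 0.462 CPM in the treated libraries, so no fold change was computed. This bound covers counting error only. The table has 224 rows at 0 in every library, and among them are miRNAs known from most tissues, such as miR-25-3p, miR-210-3p and miR-181c-5p, which were singled out after their values were seen. MiR-21-5p, also known from most tissues, had 1 to 8 counts per library, or 0.109 to 1.23 CPM. A 0 in this table is therefore not read as absence of the miRNA from the tissue, and whether the counting step or its reference set these zeros was not tested. Other miRNAs of pituitary and epithelial cells were at or near 0 too. Of 8 listed, 3 were at 0 in every library (miR-200a-3p, miR-200c-3p and miR-429), all 8 were at 0 in the 2VO libraries, and their summed level in the treated libraries was 0, 1.69 and 9.89 CPM in replicates 1, 2 and 3. Most of the last value came from the 73 counts of miR-96-5p, which is also a miRNA of sensory cells. It was the only listed member with enough counts to be tested, and it was called upregulated against 2VO libraries at 0. What was said of a 0 in this table holds for these miRNAs too.

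The row rno-miR-671 was also at 0 in all 6 libraries, with the same bound and the same reservation. Its RefSeq sequence lies at bases 50 to 70 of the 81-base hairpin, at chr4:11473194-11473274 on the minus strand of GRCr8 and inside the span of Chpf2, a gene of chondroitin synthesis. The row therefore stands for the strand of the 3′ arm, in capitals, and the strand known to direct the cutting of Cdr1as comes from the 5′ arm. The label of miR-671 as regulator of the circular RNA thus does not apply directly to the strand counted here, and the strand of the 5′ arm was not analysed here.
miR-671 hairpin: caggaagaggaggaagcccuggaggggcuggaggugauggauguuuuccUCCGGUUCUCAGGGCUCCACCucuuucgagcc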

How the data were processed

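The authors prepared small RNA libraries with the TruSeq Small RNA kit and deposited whole-number counts per mature miRNA for each library, without normalization. The submitters' processing notes list FastQC 0.11.2, Trimmomatic 0.36, cutadapt 1.14 and DESeq2 1.12.4. The aligner, the counter and the miRNA reference are not given in the sources used here, so how reads of near-identical strands were assigned, and which miRNAs could be counted, is unknown. Columns were mapped to groups by the library codes in the labels.

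The members, the marker lists and the naming rule (members, marker miRNAs, seed sharers and the 3 nearest profiles) were chosen with earlier results of these data known, and the shares of the passengers by locus after the counts were seen. All miRNAs that reached 10 counts over the 6 libraries entered edgeR's quasi-likelihood test (version 4.0.16, in R 4.3.3 with limma 3.58.1) after TMM scaling, with the group as the single term. DESeq2 1.42.0 served as an alternative. The methods of the study give thresholds but no test for the miRNAs, and the thresholds were kept. The standard error of a fold change is approximate, since it was computed back from the F statistic. RefSeq held sequences for 689 of the 775 names. P-values set the difference between the groups against the spread between these libraries, which may be technical. The code was tested on simulated data. No 2 libraries agreed within sampling noise (a chi-square test of counts, at least 141 per degree of freedom). Binomial intervals are Clopper-Pearson, computed with scipy 1.17.1.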

Additional observations from a re-analysis of the deposited data

How the results depend on the processing

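Of 28 fold changes of the miR-7 strands under other normalizations, filters, tests and the replicate block, all 28 kept their direction and their side of the study's thresholds. Of 24 from fits that left out a library, 19 did. The exceptions were rno-miR-7b, which fell short of the thresholds in 3 fits (range over the 6 fits -1.43 to -0.81), rno-miR-7a-5p, which passed the thresholds without 2VO replicate 3 (-1.20; range -1.20 to -0.65), and rno-miR-7a-2-3p, which reversed without tilianin-treated replicate 2 (0.044; range -1.14 to 0.044). The range of rno-miR-7a-1-3p was -0.41 to -0.073. These changes came from fits with fewer libraries, and no other cause was tested. The group difference in the share of rno-miR-7b, -0.0348 percentage points, was -0.0565 to 0.00778 with a library left out, that of the passengers, 0.409, was 0.103 to 0.869, and that of rno-miR-7a-2-3p among the passengers, -6.00, was -11.6 to 1.20. With 3 libraries per group, leaving out a library cannot move such a difference by more than the pooled SD of the groups. That the moves were smaller is therefore not read as stability. The first difference changed sign without treated replicate 3 and the last without treated replicate 2. Over all miRNAs, 21 were upregulated and 5 downregulated. The upregulated were 9 with the replicate block and 7 to 29 with a library left out, with 8, 7, 9 and 9 without 2VO replicates 1, 2 and 3 and treated replicate 2. The downregulated were 8 with library totals, 2 with filterByExpr, 3 with DESeq2's Wald test and 2 to 5 with a library left out, the 2 without 2VO replicate 2. Whether same-numbered libraries form pairs was not settled. The correlations of their deviations were -0.121, 0.00917 and 0.297, and differently numbered libraries were not compared in this way. The number in the library code of 2VO replicate 3 also differs from its replicate number. The block changed no call of a miR-7 strand. Counting error is widest for the 18 counts of rno-miR-7a-2-3p in treated replicate 2. The cause of the zeros of rno-miR-375-3p and rno-miR-671 was not tested.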

Other observations

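After the low share of rno-miR-7a-2-3p in tilianin-treated replicate 2 was seen, the same share was computed for the 8 pairs of strands in the table that are named for a first and a second locus of a miRNA, with a mean of at least 10 counts per library each. Treated replicate 2 lay outside the range of the other 5 libraries in 7 of the 8 pairs (3 below, 4 above), and the other libraries did so in 0 to 3 pairs. The 7 include the miR-7a pair that prompted the comparison. Every pair has a lowest and a highest library, so the counts of the other libraries are not independent of that of treated replicate 2. Besides miR-7a, let-7f-2-3p was at 68.6% in it against 80.1% to 84.5% in the other libraries, miR-24-2-5p at 71.0% against 77.5% to 84.0%, and miR-129-2-3p at 6.33% against 2.30% to 3.64%. The let-7a and let-7c pairs share a strand, since let-7a-1-3p and let-7c-2-3p have identical counts. Some of these strands come from clusters with different neighbours, and no test was run on these shares.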
